A study of Mus musculus with 2 samples.

Results

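No GABPα peak lay at any of 10 glucose uptake and glycolysis genes in mouse CD4+ T cells. The genes were Slc2a1, Hk1, Hk2, Gpi1, Pfkl, Aldoa, Gapdh, Pgk1, Pkm and Ldha. They encode a glucose transporter and enzymes of the path to lactate, without triose phosphate isomerase, phosphoglycerate mutase and enolase. They were chosen by name, as genes known to rise when T cells are activated, but with earlier results of these data known. The GENCODE M21 annotation they come from has 21938 protein-coding gene records, with 2 for Aldoa and 1 for every other member. For each gene the deposited peaks were sought within 1000 bp of any annotated transcript start, and where none lay there the nearest peak was taken.

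The data came from CD4+ T cells of wild-type C57BL/6 mice, purified with MACS beads and not described as activated. GABPα ChIP-seq, which sequences the DNA fragments that an antibody to GABPα pulls down with the protein, gave 1 ChIP library, and 1 library of input DNA from the same kind of cells served as the control for peak calling. The deposited list holds the positions of 6782 peaks that passed the authors' threshold and no height, fold or q value, so each gene has a position, a width and a sequence to report but no signal level. With 1 ChIP library there is no replicate and no p-value, and the depth of the libraries is unknown. A list of positions also holds no expression, so the T cell label could not be checked against marker genes.

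Glycolysis splits glucose into pyruvate and gains ATP and NADH on the way. Resting T cells burn fuel mostly in their mitochondria, and on activation they raise glucose uptake and glycolysis and turn much of the pyruvate into lactate, a switch known to depend on Myc, HIF-1α and mTOR signalling. GABP is a complex of a DNA-binding α subunit of the ETS family and an activating β subunit. ETS proteins read a GGAA core, GABPα favours CCGGAAG, and GABP is best known at CpG-rich promoters of housekeeping genes, among them many for mitochondrial proteins.

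The motif copies near the starts of the members are shown first, because GABPα is known to read this sequence. Of the 10 members only Ldha had the 7-base motif CCGGAAG within 1000 bp of its gene start, the outermost annotated start, and Gpi1, Gapdh and Pkm had the 6-base CGGAAG without the first C. The lines below give the 2 copies of Ldha, the copy of Gpi1 just upstream of its gene start and both copies of Pkm, on the strand that carries the motif, with the motif in capitals, from the RefSeq sequence of GRCm38.p6 (mm10). Positions before the gene start are negative.
Ldha, 379 bp after the gene start, intron, minus strand, chr7:46841844-46841869: ttttggtggCCGGAAGtcactaaagt
Ldha, 572 bp after the gene start, intron, minus strand, chr7:46842037-46842062: aacctctttCCGGAAGaggcagcatc
Gpi1, -149 bp from the gene start, outside the gene, plus strand, chr7:34230470-34230495: ggcttctgttCGGAAGtgacttgaag
Pkm, 7 bp after the gene start, noncoding part of an exon, minus strand, chr9:59656365-59656390: ccttccgtggCGGAAGgacatcgtag
Pkm, 16 bp after the gene start, noncoding part of an exon, plus strand, chr9:59656374-59656399: ccttccgccaCGGAAGgtagtcctcc
None of these copies lay in a peak, which follows from the absence of peaks within 1000 bp of any member start.

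Of the 10 peaks nearest to the members, 5 held CCGGAAG and 5 did not. The lines below show copies from those next to Gapdh, Gpi1, Hk2 and Pkm, each at a start of another gene, again on the strand that carries the motif and with CCGGAAG in capitals.
Start of Mrpl51 (near Gapdh), plus strand, chr6:125192101-125192126: ggggctaaaCCGGAAGtatttgactg
Start of Uba2 (near Gpi1), plus strand, chr7:34168557-34168582: gagcggcagCCGGAAGtcggtggggg
Start of Pole4 (near Hk2), plus strand, chr6:82653047-82653072: ctagctgagCCGGAAGtccggatgct
Start of Pole4 (near Hk2), minus strand, chr6:82652998-82653023: tgtggccgcCCGGAAGagtacatcag
Start of Arih1 (near Pkm), minus strand, chr9:59486916-59486941: ctgtgaggcCCGGAAGcgagaaaggt
The first 3 copies run on into T, which gives the 8-base CCGGAAGT, and the others do not.

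A peak within 1000 bp of an annotated start was found at 0 of the 10 genes, where 17.7% of all protein-coding gene records did (3880 of 21938). The Wilson 95% interval of 0 of 10 runs from 0% to 27.8%, and 3 counts, taken as the floor of a count of 0, allow a share of up to 30%. The background share thus lies inside what 10 genes can show, and the interval covers counting error only. Every member also had a CpG-rich transcript start, defined as a window from 250 bp before to 50 bp after the start with a GC content of at least 50% and an observed to expected CpG ratio of at least 0.6. Among the 11960 protein-coding gene records with such a start, 29.6% had a peak, which lies just above the upper bound of the Wilson interval and just inside the share of 30% that the floor allows. Members had many annotated starts, with a median of 10.5 against 3 for all protein-coding genes, and genes with at least as many starts as the median member had a peak in 31% of cases (416 of 1340). So the search windows of the members were wide for a gene of this annotation, and none of them met a peak.

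The bodies of the 10 genes held no peak either, where 19% of protein-coding gene records held one or more (4175). The list contains only intervals that passed the threshold, and weaker enrichment at a member would not appear in it. Reads of 36 bp could be placed around the members' gene starts. Inner starts farther away and the rest of the gene bodies were not examined in this way. Of the 36-base sequences within 1000 bp of each gene start, 94.8% (Pgk1) to 100% (Slc2a1, Hk2, Gapdh and Pkm) occurred at a single place in the genome, although Gapdh and Pgk1 are known for processed copies elsewhere.

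The distance from a member to its nearest peak ranged from 5045 to 222281 bp, measured from the nearest transcript start to the nearest base of the peak. The median of the members was 55248 bp, at percentile 47.5 of protein-coding gene records, whose median was 62501 bp. Protein-coding gene records without a peak had a median of 91699 bp, and the members' median stood at percentile 36.2 among them. The members thus spread over both sides of the median of protein-coding gene records. Of the 10 genes, 5 had a peak within 50 kb of a start and 3 had none within 100 kb.

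**Figure D1:**
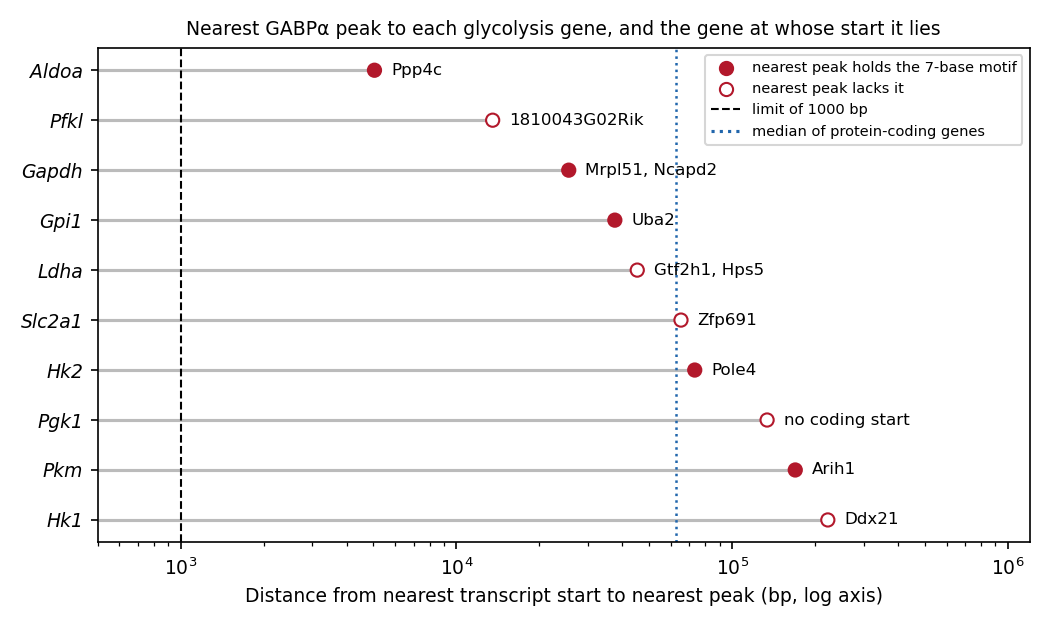
Distance in bp (log axis) from the nearest transcript start of each glycolysis gene to the nearest GABPα peak, with the coding gene at whose start that peak lies. Filled points are peaks that hold CCGGAAG and open points peaks without it, the dashed line marks 1000 bp and the dotted line the median of protein-coding gene records. All 10 points lie to the right of 1000 bp, from 5045 bp for Aldoa to 222281 bp for Hk1.

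Slc2a1 encodes GLUT1, the main glucose transporter of activated T cells, and lies at chr4:119108711-119137983 on the plus strand. Its 5 transcript starts had no peak. The nearest peak, chr4:119174138-119174347, was 65224 bp from a start and 36155 bp beyond the 3′ end of the gene. The peak was 210 bp wide, held neither the 7-base nor the 6-base motif and 4 GGAA cores, and covered a start of Zfp691, which encodes a zinc finger protein. Slc2a1 was also without CCGGAAG or CGGAAG within 1000 bp of any of its starts, a state shared with Hk2 and Pgk1.

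Hk1 and Hk2 encode the hexokinases that phosphorylate glucose and so keep it in the cell. Hk1 (chr10:62268855-62379908, minus strand) was the member farthest from a peak, at 222281 bp, which is percentile 80.1 of protein-coding gene records. That peak, chr10:62602189-62602481, was 293 bp wide and covered a start of Ddx21, an RNA helicase of the nucleolus, with 2 copies of CGGAAG and none of CCGGAAG. Hk2 (chr6:82725025-82774454, minus strand) was 73156 bp from its nearest peak, chr6:82652931-82653153. This peak of 223 bp began 2 bp from a start of Pole4, a small subunit of DNA polymerase epsilon, and held 2 copies of CCGGAAG. Both hexokinase genes, like Slc2a1, Pgk1 and Pkm, thus had no peak within 50 kb of a start.

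Gpi1 encodes the isomerase that turns glucose phosphate into fructose phosphate, and lies at chr7:34201330-34230336 on the minus strand. The nearest peak, chr7:34168438-34168721, was 37543 bp from a start and 32609 bp from the gene. It was 284 bp wide, covered a start of Uba2, a subunit of the enzyme that activates SUMO, and held 1 copy of CCGGAAG. Around its own gene start Gpi1 had 3 copies of CGGAAG, at -359, -149 and 79 bp from the start, and no copy of CCGGAAG.

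Pfkl encodes the liver type of phosphofructokinase, the enzyme of the committed step of glycolysis, and lies at chr10:77986947-78010083 on the minus strand. Its nearest peak, chr10:77978436-77978641, was 13535 bp from a start and 8306 bp from the gene. The peak was 206 bp wide and covered the start of 1810043G02Rik, with 2 copies of CGGAAG and none of CCGGAAG. The muscle type, Pfkm, differed. A peak of 355 bp at chr15:98093142-98093496 lay 498 bp from a Pfkm start, and the same peak covered a start of Senp1, a SUMO protease. Phosphofructokinase was the only step of the 10 members at which another gene for the same enzyme in the fixed list of 25 other glycolysis genes had a peak within 1000 bp.

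Aldoa encodes the aldolase that splits the sugar into its triose phosphates, and was the member closest to a peak. Its 2 gene records span chr7:126795234-126809108 on the minus strand and have 13 starts. The peak, chr7:126792383-126792706, was 5045 bp from a start, 16402 bp from the gene start and 2528 bp beyond the 3′ end of the gene. At 324 bp it was the widest of the nearest peaks, at percentile 93.9 of all peaks, and it covered the start of Ppp4c, the catalytic subunit of a protein phosphatase. The peak held 3 copies of CCGGAAG and a further copy of CGGAAG. Its part upstream of Ppp4c is shown because it is the peak sequence closest to any of the 10 genes, read on the plus strand, with CCGGAAG, or its reverse complement CTTCCGG, in capitals.
Ppp4c upstream, chr7:126792497-126792706: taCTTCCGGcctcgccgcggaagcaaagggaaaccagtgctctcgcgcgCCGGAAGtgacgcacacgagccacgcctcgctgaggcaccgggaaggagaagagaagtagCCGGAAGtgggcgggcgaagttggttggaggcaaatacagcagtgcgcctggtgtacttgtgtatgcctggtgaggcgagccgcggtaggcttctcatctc
Aldoa itself had 1 copy of CCGGAAG, in an intron at -301 bp from one of its inner starts, and no copy within 1000 bp of either gene start.

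Gapdh oxidises triose phosphate and yields NADH. The gene lies at chr6:125161715-125166467 on the minus strand among closely packed genes, with 6 other coding gene starts within 50 kb. It had the most peaks around it, with 3 within 50 kb of a start, and none of them was at Gapdh. The nearest, chr6:125192014-125192273, was 25547 bp upstream, 260 bp wide, and covered a start of Mrpl51, a protein of the mitochondrial ribosome, at 313 bp from a start of Ncapd2, a condensin subunit. The others were a peak of 300 bp at Nop2, a nucleolar RNA methyltransferase, 30549 bp away, and a peak of 203 bp at Vamp1, a vesicle fusion protein, 49014 bp away. Upstream of its own start Gapdh had a single CGGAAG and no CCGGAAG.

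Pgk1, on the X chromosome at chrX:106187100-106203699 on the plus strand, encodes the kinase of the ATP-forming step that follows Gapdh. Its nearest peak, chrX:106325500-106325687, was 133872 bp from a start and differed in kind from the others. It was the narrowest, at 188 bp, lay at no gene start, held neither form of the motif, and was 100% soft-masked, which means that the reference marks every base as repeat. None of its 36-base sequences was unique (0%), so reads from other copies of the repeat cannot be told from reads of this one. The corresponding share was 87.6% for the peak nearest to Gapdh and 100% for the other 8 nearest peaks.

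Pkm encodes pyruvate kinase, which makes pyruvate and ATP at the end of the pathway, and lies at chr9:59656368-59679375 on the plus strand. The nearest peak, chr9:59486782-59487009, was 169359 bp upstream. It was 228 bp wide, 164 bp from a start of Arih1, a ubiquitin ligase, and held 2 copies of CCGGAAG. Pkm had a pair of CGGAAG copies on opposite strands at 7 and 16 bp after its own gene start, the closest copies to a gene start among the members.

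Ldha encodes the lactate dehydrogenase subunit that reduces pyruvate to lactate, and lies at chr7:46841475-46855627 on the plus strand. A pair of peaks lay 45272 and 45637 bp upstream, 258 and 112 bp wide, at a start region shared by Gtf2h1, a subunit of the repair and transcription factor TFIIH, and Hps5, a factor for lysosome-related organelles. The wider peak, chr7:46795946-46796203, covered starts of both genes and held 1 copy of CGGAAG and none of CCGGAAG. Ldha itself had the longer motif near its gene start but no peak there.

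The nearest peaks of the members were 10 distinct intervals of 188 to 324 bp, with a median width of 243 bp. All 10 reached the median width of the list, 157 bp, and the 3459 peaks within 1000 bp of a coding start (51% of all peaks) had a median of 210 bp. Of the 10, 9 lay within 1000 bp of a start of another coding gene and 7 covered one. Among the protein-coding gene records without a peak, 56.2% had their nearest peak at a start of another coding gene (10142 of 18058). CCGGAAG was in 5 of the 10 nearest peaks, CGGAAG in 8 and GGAA in 10, and CCGGAAG was in 57.2% of the peaks at coding starts (1979). All 9 peaks within 50 kb of a member start were at a start of another coding gene.

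The motif at the gene starts of the members was counted beside its share over all genes. Within 1000 bp of the gene start CCGGAAG was present in 1 of 10, against 24.6% of protein-coding gene records (5390) and 35.4% of the CpG-rich ones (4230 of 11960). A count of 1 of 10 lies below these shares, but the difference was not tested, and with 10 genes it is no result about the members. The shorter CGGAAG was there in 4 of 10, against 48.3% of protein-coding gene records (10601). In the 300 bp from 250 bp before to 50 bp after the gene start, no member held CCGGAAG, against 10.8% of protein-coding gene records, and CGGAAG was in 3 of 10 (Gpi1, Gapdh and Pkm) against 19.9% of protein-coding gene records. In RefSeq's own promoter table for the same build, 15 entries matched the 10 symbols. Of those entries 0 held CCGGAAG and 3 held CGGAAG (20%), where 8.86% and 16.9% of all 32851 entries did. Those with CGGAAG were at Gpi1, Hk1 and Pkm, so Hk1 stood here in place of Gapdh.

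Other motifs in the 300-bp windows varied among the members. The GC box GGGCGG, read by Sp factors, was in 7 of 10, against 43% of protein-coding gene records. The ACGTG core of the hypoxia response element was in 4 of 10 (Slc2a1, Hk2, Gapdh and Pgk1), against 20.5%. The E-box CACGTG, read by Myc and related proteins, was in 0 of 10, against 7.75%. All were sought as exact letters on both strands, and each CACGTG also holds ACGTG. The GC content of these windows ran from 42.7% at Pfkl to 67.3% at Hk2. Every member had a CpG-rich start, and the shares of these motifs among CpG-rich records alone were not computed.

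Counting every transcript start changed the picture for the motif but not for the peaks. Within 1000 bp of any start, 7 of 10 members had CCGGAAG, against 33.3% of protein-coding gene records (7314), with Slc2a1, Hk2 and Pgk1 as the exceptions. The searched sequence was also longer, with a median of 7076 bp per member against 4002 bp. Per kb the members had 0.130 copies (10 in 76677 bp) and protein-coding gene records 0.104 (10577 in 101324554 bp). Of the 10 copies, 7 were in introns, 1 in a coding exon of Pfkl and 2 in noncoding parts of exons of Gapdh and Pkm. That 0 of them lay in a peak follows from the absence of peaks within 1000 bp of any member start and is no separate result. Of the 7314 gene records with the motif near any start, 38.7% had a peak (2827).

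The presence of the motif near the gene start went with the presence of a peak across all genes. Of the protein-coding gene records with CCGGAAG within 1000 bp of the gene start, 46.9% had a peak (2526 of 5390), and of those without it 8.18% had one (1354 of 16548). Among CpG-rich records without the motif the share was 15.5% (1201 of 7730). By this division 9 of the 10 members belonged to the group without the motif, and Ldha to the group with it.

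The share of copies in peaks also varied with their position. Over all coding gene starts, 58.4% of the CCGGAAG copies within 250 bp of the gene start lay inside a peak (2095 of 3590, interval 56.7% to 60.0%). From 250 to 500 bp the share was 18.0% (208 of 1157), and from 500 to 1000 bp it was 5.96% (85 of 1426). The copies of Ldha, at 379 and 572 bp, fell in the outer classes. For CGGAAG without a preceding C the shares were 31.0% (1361 of 4385), 6.82% and 1.86%. The members had 5 such copies within 250 bp and 1 from 250 to 500 bp. Measured from the gene start, no member had a CCGGAAG in the class where most copies lay in peaks. From the nearest inner start some copies were closer, at -98 and -71 bp for Gpi1, 26 bp for Pfkl and 39 bp for Pkm. None of these lay in a peak, which again follows from the absence of peaks within 1000 bp of any member start. Shares by distance from inner starts were not computed.

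**Figure D2:**
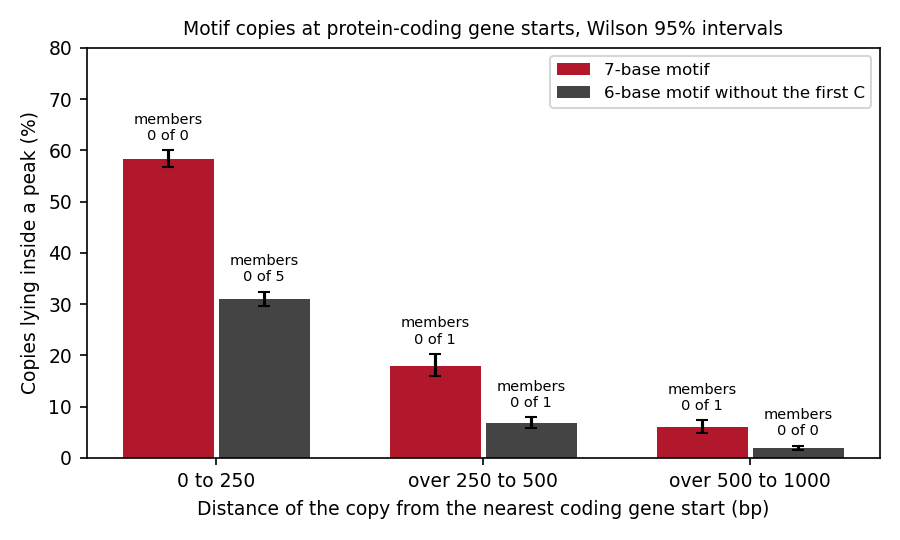
Share (%) of motif copies that lie inside a GABPα peak, by their distance in bp from the nearest coding gene start, with Wilson 95% intervals as error bars. Red bars are CCGGAAG and grey bars CGGAAG without a preceding C, and the labels give the copies of the 10 members. Of those copies 0 lay in a peak, since no member start had a peak within 1000 bp. The share falls from 58.4% to 5.96% for CCGGAAG and from 31.0% to 1.86% for the shorter motif.

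The other genes of glycolysis were counted in the same way. Of 25 further genes, mostly isozymes, 2 had a peak 1000 bp or less from a start (8%, interval 2.22% to 25.0%), and the 17.7% of all protein-coding gene records lies inside that interval. Of the 25, 13 had a CpG-rich start, as all 10 members did. The genes with a peak were Pfkm and Bpgm, a gene for the enzyme that makes bisphosphoglycerate. The Bpgm peak, chr6:34476127-34476330, was 204 bp wide and covered its start without a copy of CGGAAG. The enolase, phosphoglycerate mutase and triose phosphate isomerase genes in the list had none.

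The citric acid cycle, which burns the pyruvate that glycolysis yields, gave other counts. Of 17 of its genes, 7 had a peak (41.2%, interval 21.6% to 64.0%), and 16 of the 17 had a CpG-rich start. The share of all protein-coding gene records, 17.7%, lies below that interval, and the 29.6% of CpG-rich ones lies inside it. The 7 genes with a peak were Idh3b and Idh3g (isocitrate dehydrogenase), Dlst (of the oxoglutarate dehydrogenase complex), Sucla2 (succinate-CoA ligase), and Sdhb, Sdhc and Sdhd (succinate dehydrogenase). Within 1000 bp of the gene start CCGGAAG was in 11 of the 17 genes and in 1 of the 10 members, and within 250 bp it was in 9 and 0. Within 1000 bp it was in 24.6% of all protein-coding gene records and 35.4% of the CpG-rich ones. The shares within 250 bp were not computed. The copies in the peaks of Dlst, Sdhb and Sdhd are given for comparison with those at the glycolysis genes, on the strand that carries CCGGAAG.
Dlst, minus strand, chr12:85110824-85110849: cggcagcaaCCGGAAGtgagaccggc
Sdhb, plus strand, chr4:140961268-140961293: tcggagaaaCCGGAAGcggccttcca
Sdhd, plus strand, chr9:50603880-50603905: aagcgtgaaCCGGAAGgcaggagacg
The Sdhc peak held no copy of CGGAAG, and Idh3a, Ogdh and Mdh2, named after their values were seen, had CCGGAAG within 250 bp of the gene start and no peak. The intervals of the 2 lists meet between 21.6% and 27.8%. No test of their difference was made, since each list is a fixed set of genes in 1 library, chosen with earlier results of these data known.

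**Figure D3:**
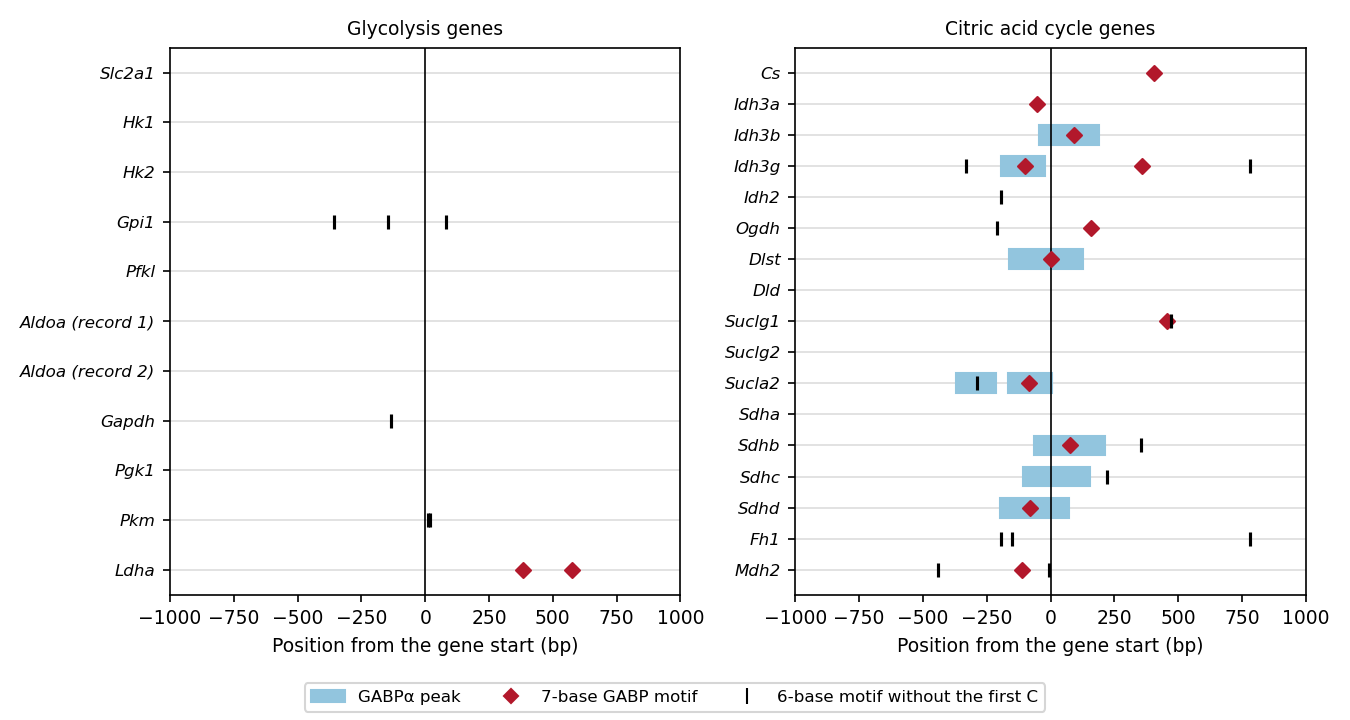
Map of the sequence from 1000 bp before to 1000 bp after the gene start (x axis, bp) for the glycolysis genes, with both records of Aldoa, and for the citric acid cycle genes. Blue bars are GABPα peaks, red diamonds CCGGAAG and black ticks CGGAAG without a preceding C. The left panel has 0 peaks and 2 diamonds, both at Ldha, and the right panel 8 peaks and 12 diamonds.

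**Figure D4:**
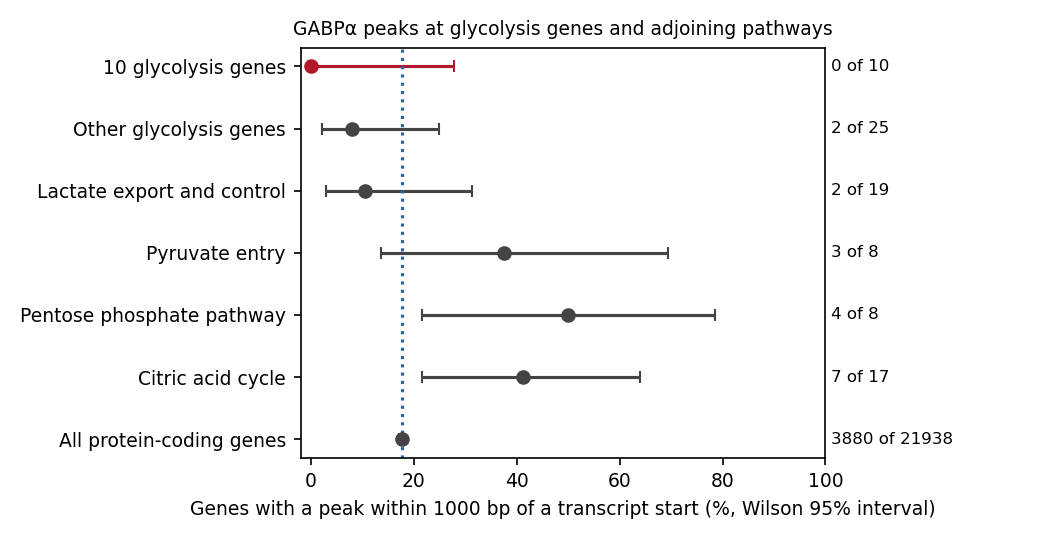
Share (%) of genes with a GABPα peak 1000 bp or less from a start in the 10 glycolysis genes, in lists of adjoining pathways and in all protein-coding gene records, with Wilson 95% intervals. Points are shares, the dotted line is the share of all protein-coding gene records (17.7%) and the counts stand at the right. The 10 glycolysis genes are at 0% and the citric acid cycle genes at 41.2%.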

How the data were processed

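Chromatin of wild-type CD4+ T cells gave 1 GABPα ChIP and 1 input library. Reads of 36 bp were trimmed by the authors (Trimmomatic), mapped to mm10 (Bowtie), and the authors called peaks with MACS2 against the input at a q value cutoff of 0.01, per the study's methods and the submitters' processing notes. The deposited file gives the start and end, in bp, of 6782 peaks and no other value per peak, since its score column is empty. Depth is unknown, and precision is that of counting genes.

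Members and gene lists were chosen with earlier results of these data known, and 1 citric acid cycle gene is not reported here. Genes named are all members, listed genes with a peak and genes at a member's peaks. Genes sharing a peak with a listed gene, and Idh3a, Ogdh and Mdh2, were named after their values were seen. Peaks were set on GENCODE M21 transcript starts and RefSeq GRCm38.p6 sequence, and motifs were counted as exact letters on both strands (Python 3.11.15, pandas 2.3.3, numpy 2.4.6). Intervals are Wilson 95% intervals (scipy 1.17.1). Tested on simulated data, the scripts found 400 of 400 distances and 500 of 500 planted motifs. Alternatives covered the distance, transcripts, peaks and motif. The CpG-rich and many-start backgrounds and the any-start windows were chosen after seeing the data.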

Additional observations from a re-analysis of the deposited data

How the results depend on the processing

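The 8 alternatives tried for the peaks were limits of 500, 2000 and 5000 bp, a start inside the peak and the gene start only. They also included protein-coding transcripts only, wide peaks only and peaks under 50% soft-masked. The count of 0 of 10 glycolysis genes with a peak could not change under any of them. The smallest distance of a member was 5045 bp, and the alternatives other than 2000 and 5000 bp only narrow the search. Over those alternatives the citric acid cycle genes gave 6 to 7 of 17, and the share of all protein-coding gene records ran from 13.9% to 19.9%. That share was 29.6% for CpG-rich genes and 31.0% for genes with many starts. The other glycolysis genes with a peak numbered 4 at 5000 bp and 1 where the start had to lie inside the peak, against 2 as reported. Counts of the motif depended on its letters and on the window. The nearest peaks of the members holding it numbered 8 with CGGAAG and 10 with GGAA, against 5. Member start windows holding it numbered 0 in the 300 bp at the start, 4 with CGGAAG, 10 with GGAA and 7 around any transcript start, against 1. For protein-coding gene records the same share was 10.8% in the 300 bp at the start, 8.58% with CCGGAAGT, 48.3% with CGGAAG and 100% with GGAA, against 24.6%. The remaining 33 of 47 alternatives stayed within 1.5 times the reported value, and they include the 8 for the members' count of 0, which could not change. No paired analysis was possible because there is 1 ChIP library and no test. With 10 genes the interval of a count of 0 reaches 27.8%, so smaller shares are not detectable.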

Other observations

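Pathways that branch from glycolysis had peaks at some of their genes. For comparison, 17.7% of all protein-coding gene records and 29.6% of the CpG-rich ones had a peak. In the pentose phosphate pathway, which draws on the product of hexokinase, 4 of 8 genes had a peak 1000 bp or less from a start (50%, Wilson 95% interval 21.5% to 78.5%). They were G6pdx, the enzyme that opens the pathway, H6pd, its counterpart in the endoplasmic reticulum, Rpe and Rpia, the epimerase and isomerase of pentose phosphates. G6pdx had 2 peaks, and the one at chrX:74429594-74429777, shared with a start of Ikbkg, held 3 copies of CCGGAAG within 184 bp. Of 8 genes for the entry of pyruvate into mitochondria, 3 had a peak (37.5%, interval 13.7% to 69.4%). These were Mpc1 and Mpc2, both subunits of the mitochondrial pyruvate carrier, and Pcx, pyruvate carboxylase. Every gene of both lists had a CpG-rich start, and the share of CpG-rich records lies inside both intervals.

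Of 19 genes for lactate export and the control of glycolysis, 2 had a peak (10.5%, interval 2.94% to 31.4%). They were Pfkfb1, a regulator of phosphofructokinase whose peak covers a start of Apex2, and Mtor, with a peak of 239 bp ending 135 bp before a start and holding 1 copy of CCGGAAG. The share of all protein-coding gene records, 17.7%, lies inside the interval for these 19 genes.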
